A study of Mus musculus with 18 samples.

Results

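The genes described here build the cornified envelope, the cross-linked protein shell that replaces the plasma membrane when a keratinocyte becomes a dead corneocyte, or are switched on late in keratinocyte differentiation. They were chosen by name: every gene whose symbol starts with Sprr or Lce, plus loricrin (Lor), filaggrin (Flg), Flg2, involucrin (Ivl), hornerin (Hrnr), repetin (Rptn), Krtdap, suprabasin (Sbsn), dermokine (Dmkn), cornifelin (Cnfn), Casp14, Tgm1, Tgm3, Calm4, Calml3, galectin-7 (Lgals7), Ly6d and Asprv1. This gave 54 of the 32285 genes measured. By role, 15 are small proline-rich (Sprr) genes, 21 are late cornified envelope (Lce) genes, 4 are fused S100 genes (Flg, Flg2, Hrnr and Rptn), 3 are other precursors (Ivl, Lor and Cnfn), 4 are enzymes (Casp14, Tgm1, Tgm3 and Asprv1), 3 are secreted proteins of stratified epithelia (Dmkn, Krtdap and Sbsn), and 4 are calcium-binding or other proteins (Lgals7, Ly6d, Calm4 and Calml3).

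Mouse skin was dissociated, sorted for living cells without DAPI stain and profiled by droplet single-cell 3′ RNA sequencing, which counts RNA molecules by unique molecular identifiers (UMIs). All mice were operated on: the back skin was cut near the tail and a tunnel was opened under the skin as far as the neck. In expanded mice (EXP) a hydrogel expander that stretches the skin was stitched in place under the skin near the neck, and control mice (CTRL) had the operation alone. Strain, age and sex are not given in the labels. Each of the 10 libraries is a pool of the mice of 1 arm and 1 sequencing round, with 2 rounds on day 1, 2 on day 2 and 1 on day 4 in each arm. Libraries held 2468 to 9115 barcodes and 17726739 to 75470722 gene UMIs, 8.60% to 24.4% of barcodes had over 10% mitochondrial UMIs, any 2 libraries shared 1 to 23 barcodes, and 45504 cells were kept. The keratinocyte lineage comprised 4873 cells, 2020 CTRL and 2853 EXP, with 61 to 1402 per library. Median depth was 10074 UMIs per lineage cell in CTRL and 13220 in EXP, a difference that runs through all comparisons below.

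As background, keratinocytes leave the basal layer, pass through the spinous layer, where Krt1 and Krt10 are expressed, and reach the granular layer, where envelope precursors accumulate. Transglutaminases such as Tgm1 and Tgm3 then join involucrin, loricrin, Sprr and Lce proteins into the envelope, while the proteases Asprv1 and Casp14 take part in cutting profilaggrin and filaggrin. Sprr genes are also known to be induced in wounded and stressed epithelia. Clusters are named below by marker genes as spinous-like, basal-like, upper-follicle-like and so on, and the 54 genes themselves were kept out of the clustering.

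Of the 54 genes, 42 lie on chromosome 3 between positions 92080271 and 93399442 of mm10, a stretch of 1.32 Mb known as the epidermal differentiation complex. Dmkn, Krtdap, Sbsn, Lgals7 and Cnfn lie on chromosome 7 and Calm4 and Calml3 on chromosome 13. RefSeq's promoter table (GRCm38.p6) held 50 of the 54 genes. The AP-1 motif TGANTCA, searched on both strands, was present in 17 of 50 promoter windows (34%) and in 8.97% of 27025 genes. The TATA motif TATAAA was present in 21 windows (42%, against 15.7%), and the KLF motif CACCC in 29 (58%, against 59.8%). A window runs from 250 bases before the start to 50 after it, and the 3 motifs share no letters that would make 1 match count for another. The 7 Sprr2 genes in the table other than the Sprr2a copies all held an AP-1 motif between 198 and 182 bases upstream and TATAAA at -29. The windows of Sprr2a1, Sprr2a2 and Sprr2a3 held neither. RefSeq's start for Sprr2a3 lies 113 bases upstream of the start in GENCODE, which lists 2 transcripts of the gene, so the Sprr2a3 window is that of the RefSeq start only. The 250 bases before the start are shown, 5′ to 3′ on the gene's strand with AP-1 and TATA motifs in capitals, for Sprr2a3, which was higher in expanded spinous-like cells, for its neighbour Sprr2d, for Sprr1a, which was lower there, and for Krtdap, which was higher in expanded follicle cells. The windows are chr3:92285054-92285303 (plus strand) for Sprr2a3, chr3:92338890-92339139 (plus) for Sprr2d, chr3:92485882-92486131 (minus) for Sprr1a and chr7:30787655-30787904 (plus) for Krtdap.
Sprr2a3: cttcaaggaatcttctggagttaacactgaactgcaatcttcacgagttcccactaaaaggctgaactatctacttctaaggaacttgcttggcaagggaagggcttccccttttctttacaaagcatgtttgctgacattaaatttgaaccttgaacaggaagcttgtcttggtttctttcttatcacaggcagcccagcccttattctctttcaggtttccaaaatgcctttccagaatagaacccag
Sprr2d: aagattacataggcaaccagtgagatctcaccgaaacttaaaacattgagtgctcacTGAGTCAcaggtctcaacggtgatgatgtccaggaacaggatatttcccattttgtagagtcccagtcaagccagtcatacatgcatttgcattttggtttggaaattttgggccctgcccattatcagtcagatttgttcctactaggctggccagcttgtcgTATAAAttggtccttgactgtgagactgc
Sprr1a: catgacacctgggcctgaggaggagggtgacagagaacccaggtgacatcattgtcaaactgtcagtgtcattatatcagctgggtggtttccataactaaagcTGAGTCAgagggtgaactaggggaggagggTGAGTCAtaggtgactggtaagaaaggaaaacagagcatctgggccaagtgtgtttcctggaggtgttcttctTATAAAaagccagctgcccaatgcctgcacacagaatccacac
Krtdap: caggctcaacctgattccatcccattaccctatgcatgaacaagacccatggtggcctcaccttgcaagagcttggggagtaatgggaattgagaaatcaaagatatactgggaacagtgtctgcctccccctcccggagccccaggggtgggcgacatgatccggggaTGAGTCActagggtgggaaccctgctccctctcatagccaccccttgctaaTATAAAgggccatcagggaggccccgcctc
Sprr1a held 2 AP-1 motifs, at -146 and -116, and Krtdap held 1, at -81, with TATAAA at -30. A match is a run of letters and says nothing of whether a factor binds there.

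Detection was very uneven among the genes. In all keratinocytes together, 5 genes had no UMI (Lce1k, Lce3a, Lce3b, Lce3e and Sprr3), 19 had 1 to 10 UMIs, 30 had more than 10 and 10 had more than 1000. The genes gave 784206 UMIs in all. Lgals7, Ly6d, Calm4 and Calml3 held 76.2% of these, Dmkn, Krtdap and Sbsn 20.9%, the Sprr genes 2.46%, the enzymes 0.346%, Ivl, Lor and Cnfn 0.101%, the 21 Lce genes 0.0184% and the fused S100 genes 0.0167%. Lgals7, a galectin of stratified epithelia, was the most abundant with 486686 UMIs in 4861 of the 4873 cells. Ly6d followed with 80965 UMIs in 2498 cells, Dmkn with 70612 in 4279, Krtdap with 50774 in 1509 and Sbsn with 42209 in 3865. These genes were read in a large share of keratinocytes, and the classical granular-layer precursors were not. Sprr1a had 14882 UMIs in 940 cells, Ivl 431 in 227, Lor 311 in 194 and Flg 94 in 20. Among the Lce genes the highest were Lce1a2 and Lce1m with 21 UMIs each.

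**Figure D1:**
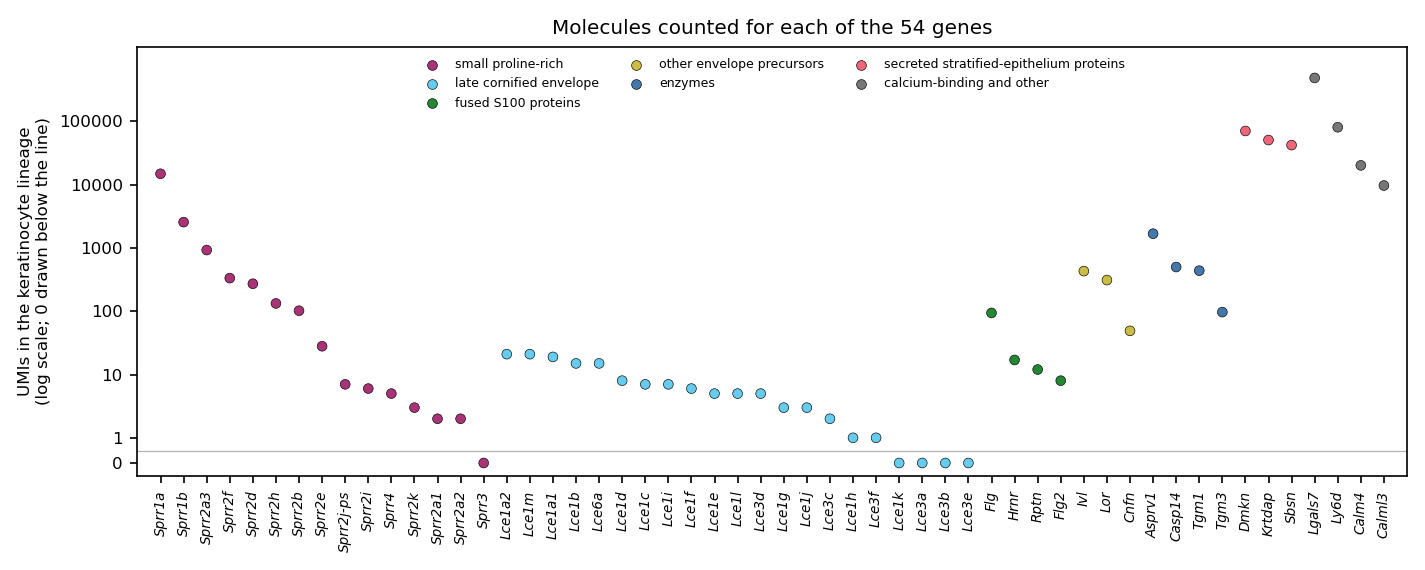
UMIs of each of the 54 genes summed over the 4873 keratinocytes (vertical axis, log scale, with 0 drawn below the line), coloured by role. Values run from 0 to 486686 (Lgals7), and the Lce genes and the fused S100 genes all lie under 100.

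The latest transcripts were read in few cells. Lor, Flg, Flg2, Hrnr, Rptn and the Lce genes together gave 586 UMIs in 267 of 4873 cells, and the 6 cells with at least 10 of them, 3 CTRL and 3 EXP, held 29.7% of these UMIs. Lor, with 311 UMIs in 194 cells, was spread more widely than Flg, Hrnr or Rptn. The cell with the most was a day 4 CTRL cell of cluster 16 with 39 Lor, 10 Hrnr and 4 Rptn UMIs among 3585. The next was a day 4 EXP cell of the same cluster, which held 52 of all 94 Flg UMIs (55.3%) and 163 Sprr1a UMIs. The next after it was a basal-like cell of day 1 round 1 CTRL with 31 Lce UMIs. Single cells also carried much of some Sprr2 genes: 86.3% of the Sprr2b UMIs came from 1 day 4 EXP cell, and the leading cell held 23.9% of Sprr2d and 18.0% of Sprr2f. For Sprr2a3 the leading cell held 7.98% of 927 UMIs, which were spread over 123 cells. Levels of Flg, Hrnr, Rptn, Lce and Sprr2b in any group of these libraries therefore rest on very few cells.

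Most of the abundant genes were highest in the suprabasal clusters, and several were highest elsewhere. Levels here are UMIs of a gene scaled to library depth (CPM, the gene's share of all UMIs times 1e6) with the cells of a cluster and arm pooled, and they describe the clusters without a test. The suprabasal clusters were spinous-like cluster 5 (179 CTRL and 160 EXP cells) and the unnamed cluster 16 (30 CTRL and 68 EXP cells), whose leading genes were Cst6, Sprr1b, Klk7, Krt6b and Klk10. With both arms pooled, Krt1 and Krt10 were 3728 and 6497 CPM in cluster 5 and 583 and 910 in cluster 16. Krt79, a keratin of the upper follicle, was 2794 and 3694 CPM in clusters 5 and 16, against 1776 in upper-follicle-like cluster 1. Both clusters may therefore include upper follicle cells. Krtdap, a secreted protein of differentiating keratinocytes, was 5194 CPM in cluster 5 and 3425 in cluster 16 in CTRL, and 4728 and 3652 in EXP, above every other cluster. The surface protein Ly6d was highest in cluster 16 (4708 CPM in CTRL and 4790 in EXP), and Calm4, a calmodulin-like protein, in cluster 5 (2999 and 2580). Lgals7 was highest in cluster 16 in CTRL (18150 CPM, against 14960 in cluster 5) and in cluster 5 in EXP (21180, against 12400 in cluster 16). Sprr1a was highest in cluster 16 in CTRL, at 4590 CPM. In EXP it was 1081 CPM there. It was 3791 CPM in the 7 EXP cells of cluster 20, which was named T cell by its markers and left out of the keratinocyte lineage. Sprr1b was highest in cluster 16 in both arms, at 525.3 and 792.6 CPM. Lor was 146.7 CPM in cluster 16 in CTRL and 11.88 in EXP, where cluster 6 (11.49) and basal-like cluster 11 (10.91) were close to it. The CTRL level of Lor in cluster 16 rests on 50 UMIs in 3 of 30 cells. Flg was highest in cluster 9 in CTRL (20.29 CPM, 9 UMIs) and in cluster 16 in EXP (34.32 CPM, 52 UMIs).

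Other genes were highest outside clusters 5 and 16 in at least 1 arm. Sbsn was highest in cluster 16 in CTRL (4622 CPM, against 3328 in bulge or outer root sheath (ORS)-like cluster 9) and in cluster 9 in EXP (2650, against 1838 in cluster 16). Dmkn likewise was highest in cluster 16 in CTRL (2800 CPM) and in cluster 9 in EXP (2086, against 2041 in cluster 16). Calml3, a calmodulin-like protein, was highest in cluster 9 in both arms (541.1 and 554.7 CPM) and lowest in basal-like cluster 11 (1.201 and 2.518). Ivl, an early precursor of the envelope, was 20.23 CPM in cluster 5 and 17.1 in inner root sheath or hair matrix-like cluster 8 in CTRL, and 9.456 and 14.68 CPM in EXP, where cluster 8 had 12 cells. Sprr2a3 was highest in basal-like cluster 11 in CTRL, at 10.81 CPM, and in EXP reached 172.8 CPM in cluster 5 and 112.0 in cluster 11 but 8.579 in cluster 16. In cycling cluster 7, Sprr2a3 was close between arms, at 9.927 CPM in CTRL (17 UMIs) and 11.89 in EXP (67 UMIs). The share of all UMIs that came from the 54 genes was 2.81% to 4.10% per library in spinous-like cells (1.49% in day 2 round 1 CTRL, which had 4 such cells), 1.14% to 1.52% in upper-follicle-like cells and 0.467% to 0.844% in bulge/ORS-like cells.

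**Figure D2:**
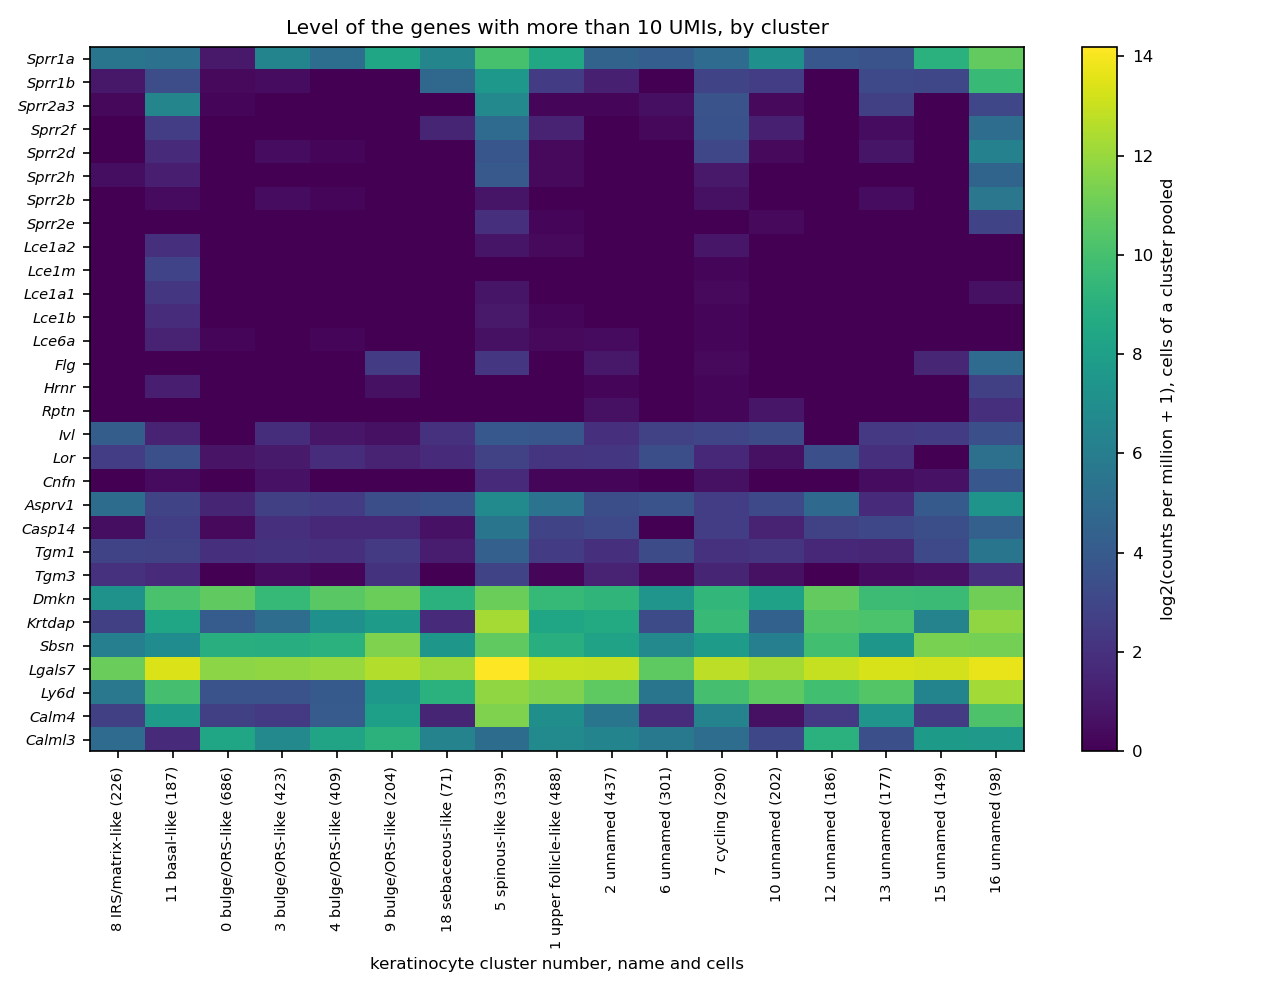
Level of the 30 genes with more than 10 UMIs (rows) in each named or numbered keratinocyte cluster (columns, with cells in brackets), as log2 of CPM plus 1 with all cells of a cluster pooled. With both arms pooled, clusters 5 and 16 are brightest for most Sprr genes, Krtdap, Ly6d and Calm4, cluster 9 for Sbsn and Calml3.

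In spinous-like cells, expansion went with much more Sprr2a3 and with less Asprv1, Sprr1a and Sbsn. Spinous-like cells (418, of which 331 were of cluster 5 and 87 of cluster 16) were summed per library and compared by edgeR's quasi-likelihood test, adjusted for day, with Benjamini-Hochberg correction over all 5608 genes. The 4 CTRL libraries had 24 to 96 cells and the 5 EXP libraries 11 to 133; day 2 round 1 CTRL, with 4 cells, was left out. Of the 14 genes of the set that were high enough to test, 4 passed an adjusted p of 0.05, 1 higher and 3 lower in EXP. Across all genes the same test called 7.35%, with 3.12% higher and 4.23% lower. In 12 of the 14 the difference was below 0, against 50.1% of all genes, with a median log2 fold change of -0.36 against -0.0012 for all genes. The labels do not say how the mice of a pool were chosen, so p-values measure the spread between these pools.

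Sprr2a3 (ENSMUSG00000074445; chromosome 3, 92285417 to 92291405), a small proline-rich envelope precursor, stood at 0 CPM in day 1 round 1 CTRL, 1.924 in day 1 round 2, 0 in day 2 round 2 and 0 on day 4. In EXP it was 90.07 CPM in day 1 round 1, 134.1 in day 1 round 2, 91.55 in day 2 round 1, 6.556 in day 2 round 2 and 144.0 on day 4. All 5 EXP libraries lay above all 4 CTRL libraries, where 8.63% of the genes tested have arms that do not overlap. The log2 fold change was 6.62 (SE 0.75, adjusted p = 0.00038 by edgeR's quasi-likelihood test), a size that depends on the prior count because 3 control libraries were at 0. By direct count, 2 of 2360669 CTRL UMIs and 530 of 4470026 EXP UMIs were Sprr2a3, a ratio of 140 (95% exact interval 38.6 to 1159, counting error only). The UMIs came from 2 of 197 CTRL cells (1.02%) and 40 of 221 EXP cells (18.1%). With every cell thinned to 2000 UMIs, the Sprr2a3 shares were 0 of 192 CTRL cells, which allows a share of up to 1.56% (3 counts), and 18 of 219 EXP cells (8.22%). Cells of 1 library are not replicates, so these shares describe the cells sampled and carry no test of the arms. No Sprr2a3 UMI was found in 1503 CTRL and 1710 EXP T cells, which should lack the gene (up to 0.1996% and 0.1754% allowed). Median depth was 11680 and 18480 UMIs per spinous-like cell and 3444 and 4604.5 per T cell in CTRL and EXP. Leaving out day 1 round 1, day 1 round 2, day 2 round 1 or day 4 EXP put Sprr2a3 below the filter on low counts, so that it was not tested, and the same happened in thinned cells and when the CTRL library with 4 cells was included. It passed in each of the other 5 fits that left out a library, with log2 fold changes of 6.23 to 9.22. In the main fit and these 5, Sprr2a3 met the filter through EXP libraries alone, since CTRL stood at 0 or 1.924 CPM. The test, the lack of overlap and these 5 fits are thus conditioned on high EXP values and give no independent support.

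Sprr2a3 shares sequence with its copies. Of the 50-base windows in the last 300 bases of its transcripts, 71.1% also occur in another gene, among them Sprr2a1, Sprr2a2 and Sprr2b. Sprr2a1 and Sprr2a2, whose windows are all shared, had 2 UMIs each, so which of the copies gave the molecules counted as Sprr2a3 is uncertain.

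Asprv1 (ENSMUSG00000033508; chromosome 6, 86628164 to 86629710), the aspartic protease that cuts profilaggrin, was 160.5, 346.4, 143.9 and 298.2 CPM in the CTRL libraries of day 1 round 1, day 1 round 2, day 2 round 2 and day 4. In EXP it was 41.28, 36.33, 200.3, 68.84 and 60.44 CPM in day 1 rounds 1 and 2, day 2 rounds 1 and 2 and day 4. Day 2 round 1 EXP lay inside the CTRL range and the other 4 EXP libraries lay below it. The means were 237 ± 100 CPM (SD, n = 4) and 81.4 ± 67.8 (SD, n = 5), and Asprv1 fell by 2.06 on the log2 scale (SE 0.45, adjusted p = 0.0177 by edgeR's quasi-likelihood test). The call was lost without day 1 round 1 EXP (adjusted p = 0.0714), day 1 round 2 EXP (0.118), day 4 CTRL (0.0629) or day 4 EXP (0.0686), and in thinned cells (0.0766), each by edgeR. Asprv1 was also read in neutrophils, with 2009 UMIs at 498.5 CPM. In the spinous-like cells, the neutrophil-defining genes Csf3r and Ly6g were at 0 in both arms. Retnlg and Mmp9, also neutrophil markers, were at 0 in CTRL only. The summed level of 8 neutrophil markers ran from 13.5 to 32.1 CPM in CTRL and from 76.9 to 3989 in EXP, and without S100a8 and S100a9, which keratinocytes can also express, from 0 to 18.26 and from 2.861 to 19.16. The part of neutrophil RNA in the Asprv1 result was not tested.

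Sprr1a (ENSMUSG00000050359; chromosome 3, 92483952 to 92485895, minus strand), an early and stress-inducible precursor, was 1436, 2184, 1490 and 2635 CPM in the CTRL libraries in the same order. In EXP it was 315.2 and 586.9 CPM on day 1, 1416 and 1669 on day 2 and 1214 on day 4. The day 1 EXP libraries were the lowest, and 1 day 2 EXP library lay within the CTRL range. Sprr1a fell by 1.35 on the log2 scale (SE 0.34, adjusted p = 0.0321 by edgeR), from 1936 ± 577 CPM (SD, n = 4) to 1040 ± 570 (SD, n = 5). Sbsn (ENSMUSG00000046056; chromosome 7, 30751471 to 30756134), a secreted protein of suprabasal layers, was 2641, 2518, 2035 and 3770 CPM in CTRL and 1195, 1154, 1923, 2623 and 1688 CPM in EXP. The arms overlapped through day 2 round 2 EXP, which lay within the CTRL range. Sbsn fell by 0.91 on the log2 scale (SE 0.24, adjusted p = 0.0365 by edgeR), and 0.0524 with a replicate block. Both calls are fragile: leaving out any library of day 1 or day 4, in either arm, lost them, with adjusted p up to 0.148 for Sprr1a and 0.162 for Sbsn. In cluster 5 alone, adjusted p was 0.163 for Sprr1a and 0.098 for Sbsn, while Asprv1 (log2 fold change -3.36, adjusted p = 0.00386) and Sprr2a3 (7.05, 0.000385) passed, all by edgeR. Of the 50-base windows of Sbsn, 75.2% lie in the overlapping gene Tmem147os.

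The other 10 genes tested in spinous-like cells did not pass, by edgeR's quasi-likelihood test. Nearest were Casp14, a protease of the cornified layer, with a log2 fold change of -0.75 (SE 0.25, adjusted p = 0.0813), and Dmkn with -0.46 (SE 0.17, adjusted p = 0.121). Ivl (-1.08) and Ly6d (-0.38) each had an adjusted p of 0.174. The 2 most abundant genes of the differentiated cells were close between arms in these sums: Lgals7 was 16220 ± 2541 CPM (SD, n = 4) in CTRL and 17220 ± 2339 (SD, n = 5) in EXP (log2 fold change -0.04, SE 0.16), and Krtdap 5302 ± 919 and 4607 ± 1107 (-0.35, SE 0.21). Within the clusters, pooled Lgals7 was 14960 CPM in CTRL and 21180 in EXP in cluster 5, but 18150 and 12400 in cluster 16. The part of the cluster mix in the summed Lgals7 level was not tested. Calm4 (-0.35, SE 0.29), Tgm1 (-0.18, SE 0.41), Sprr1b (-0.17, SE 0.40) and Calml3 (0.01, SE 0.40) had adjusted p of 0.489 or more. Among genes too low to test, Lor was 24.07, 6.735, 11.99 and 118.7 CPM in CTRL and 28.15, 4.791, 2.861, 3.278 and 2.572 CPM in EXP. The highest Lor value of each arm came mostly from 1 cell, with 39 Lor UMIs in day 4 CTRL and 14 in day 1 round 1 EXP. Flg was 66.87 CPM in day 4 EXP, where 1 cell held most of it, and at most 12.17 CPM in any other library.

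**Figure D3:**
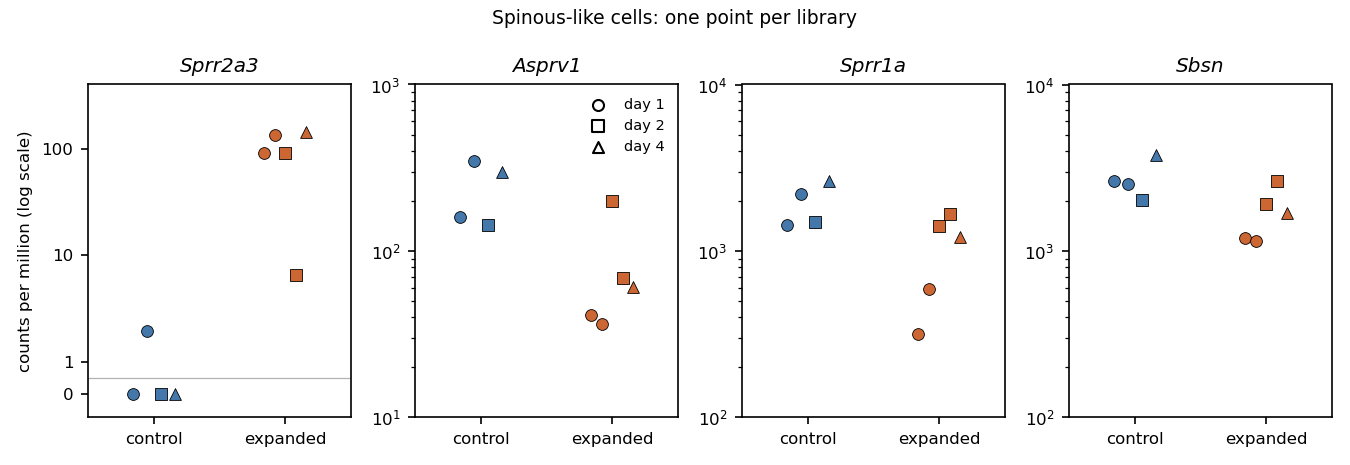
CPM of Sprr2a3, Asprv1, Sprr1a and Sbsn in spinous-like cells (log scale, with 0 drawn below the line for Sprr2a3), 1 point per library, 4 control and 5 expanded, with the day as the symbol. Expanded libraries lie between 6.556 and 144.0 for Sprr2a3, above every control, and the day 2 expanded libraries lie nearest to the controls for the other 3 genes.

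The 2 clusters that make up the spinous-like cells were mixed in different proportions: cluster 16 gave 0% to 33.3% of these cells in CTRL libraries and 21.8% to 54.5% in EXP libraries. Pooled over libraries, Sprr2a3 was 0.941 CPM in CTRL and 173 in EXP in cluster 5, and 0 and 8.58 CPM in cluster 16. Asprv1 was 243 and 19.6 CPM in cluster 5 and 302 and 128 CPM in cluster 16. Sprr1a was 1708 and 653 CPM in cluster 5 and 4590 and 1081 CPM in cluster 16. Sbsn was 2376 and 1192 CPM in cluster 5 and 4622 and 1838 CPM in cluster 16. These pooled levels of Asprv1, Sprr1a and Sbsn differed in the same direction in both clusters. All cells of cluster 16 were counted, of which 21 of 30 in CTRL and 66 of 68 in EXP were in the spinous-like set. For Sprr2a3, cluster 16 cannot show a direction. Its EXP level rests on 13 UMIs, 8 of them from day 4, and 3 UMIs in CTRL would be 8.805 CPM. Day 2 departed from this in cluster 5, on few cells. There Sprr1a was 83.36 and 1085 CPM in CTRL (4 and 17 cells) and 1575 and 2355 CPM in EXP (8 and 7 cells), and Sbsn 500.1 and 1341 CPM against 2161 and 1421. Asprv1 was 0 and 23.29 CPM there in CTRL against 49.4 and 16.99 in EXP. In cluster 16, Asprv1 in day 1 round 1 was 118.5 CPM in CTRL and 131.6 in EXP, and Sbsn in day 2 round 2 was 3131 and 4275.

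Neighbouring Sprr2 genes, none high enough to test, were lower in EXP in cluster 5 with libraries pooled, while cluster 16 gave no firm direction. In cluster 5, Sprr2f was 72.0 CPM in CTRL and 0.977 in EXP, Sprr2d 29.2 and 1.63, and Sprr2h 31.99 and 2.28. In cluster 16, Sprr2f was 0 in CTRL and 39.6 CPM in EXP, Sprr2d 5.87 and 89.1, and Sprr2h 2.93 and 27.7. These CTRL levels rest on 0, 2 and 1 UMIs, and 3 UMIs there would be 8.805 CPM. A single day 4 EXP cell held 65 of the Sprr2d UMIs. Day 4 EXP held 56 of the 60 Sprr2f and 106 of the 135 Sprr2d UMIs of EXP in cluster 16, and without it the EXP levels were 3.874 CPM for Sprr2f (4 UMIs), 28.09 for Sprr2d and 26.15 for Sprr2h. By library, the cluster 5 UMIs of Sprr2f were 5, 84, 0, 0 and 64 in CTRL (day 1 rounds 1 and 2, day 2 rounds 1 and 2, day 4) and 3, 0, 0, 0 and 0 in EXP. Those of Sprr2d were 1, 9, 0, 3 and 49 in CTRL and 1, 2, 0, 0 and 2 in EXP. Those of Sprr2a3 were 0, 2, 0, 0 and 0 in CTRL and 46, 346, 32, 2 and 104 in EXP. Sprr2a3 was thus the only Sprr2 gene of these 3 with UMIs in every EXP library of cluster 5.

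Basal-like cluster 11 (85 CTRL and 102 EXP cells) also held Sprr2a3, but too few libraries had enough cells for a test. Sprr2a3 UMIs numbered 9 in CTRL, all from day 2 round 2, and 267 in EXP (14, 239, 12, 1 and 1 by library in the same order). The ratio of Sprr2a3 shares of UMIs was 10.4 (95% exact interval 5.38 to 22.9, counting error only), and the UMIs lay in 3 of 85 CTRL cells and 44 of 102 EXP cells. Most of these UMIs came from day 1 round 2 EXP, without which the EXP level was 39.09 CPM in place of 112.0. The CTRL level was 10.81 CPM, and 0 without day 2 round 2. On day 2 the order was the other way: Sprr2a3 was 82.38 CPM in round 2 CTRL (11 cells), above round 1 EXP (70.29, 6 cells) and round 2 EXP (28.02, 2 cells). Krtdap in the same cluster was 58.9 CPM in CTRL and 421 in EXP, Lgals7 was 6994 and 12460 CPM, and Sprr1a was 99.7 and 15.95 CPM. Median depth was 10264 UMIs per CTRL cell and 22852 per EXP cell.

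In the follicle it was Krtdap that rose with expansion. Upper-follicle-like cells (488) were tested over 4 CTRL and 4 EXP libraries with at least 20 cells each, and 1 of 10 genes tested passed, against 2.76% of 6366 genes (0.911% higher and 1.85% lower). Krtdap (ENSMUSG00000074199; chromosome 7, 30787896 to 30791097) was 113.8, 138.7, 109.4 and 292.0 CPM in CTRL of day 1 rounds 1 and 2, day 2 round 2 and day 4. It was 355.7, 399.0, 239.3 and 703.5 CPM in EXP of day 1 rounds 1 and 2, day 2 round 1 and day 4. The day 4 libraries were the highest of their arms, and the arms overlapped only because day 4 CTRL exceeded day 2 round 1 EXP. Krtdap rose by 1.34 on the log2 scale (SE 0.16, adjusted p = 0.000351 by edgeR's quasi-likelihood test), was higher in EXP in 3 of 3 pairs from the same round, and passed without any 1 library (1.22 to 1.42). In thinned cells it was 0.87 with an adjusted p of 0.115 by edgeR, where 1563 genes were tested. Krtdap UMIs were present in 79 of 221 CTRL cells (35.7%) and 131 of 267 EXP cells (49.1%), and after thinning in 34 of 220 (15.5%) and 63 of 267 (23.6%). In T cells, thinned in the same way, Krtdap shares were 0.544% and 0.852%. Median depth was 9943 UMIs per upper-follicle-like CTRL cell and 14675 per EXP cell. The 5 richest cells held 38.6% of the Krtdap UMIs in CTRL and 26.2% in EXP.

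The other 9 genes tested in upper-follicle-like cells did not pass edgeR's quasi-likelihood test. Sbsn had a log2 fold change of -0.50 (SE 0.14, adjusted p = 0.0673). Calm4 ran from 18.79 to 145.2 CPM in CTRL and from 40.38 to 245.7 CPM in EXP, a log2 fold change of 1.34 (SE 0.50, adjusted p = 0.148). Ly6d was 3089 ± 73 CPM (SD, n = 4) in CTRL and 2541 ± 315 (SD, n = 4) in EXP. Its arms did not overlap, as for 9.22% of all genes, but the log2 fold change of -0.34 did not pass (SE 0.13, adjusted p = 0.1604 by edgeR). Sprr2a3 was nearly absent, with 0 of 221 CTRL cells (up to 1.36% allowed) and 1 of 267 EXP cells holding a UMI.

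In bulge/ORS-like cells (522 CTRL and 1200 EXP cells), 1 of 8 genes tested passed, against 2.5% of 8431 genes (1.61% higher and 0.89% lower). Krtdap was 22.36, 31.58, 72.69 and 39.92 CPM in CTRL and 95.41, 56.83, 145.3, 95.02 and 139.1 CPM in EXP. Day 1 round 2 EXP lay within the CTRL range and the other 4 EXP libraries above it, so the arms overlapped, as they did for all but 6.45% of genes. Krtdap rose by 1.26 on the log2 scale (SE 0.23, adjusted p = 0.0236 by edgeR) and was higher in 4 of 4 pairs. The call was lost without day 1 round 1 CTRL (adjusted p = 0.108), day 4 CTRL (0.0621) or day 4 EXP (0.0552), with cells of at most 5% mitochondrial UMIs (0.0679) and in thinned cells (0.0954), all by edgeR. The Krtdap UMIs lay in few cells: 184 UMIs in 29 CTRL cells, with 76.1% in the top 5, and 1333 UMIs in 159 EXP cells, with 32.3% in the top 5. Median depth was 7951 UMIs per CTRL and 11257.5 per EXP cell. T cells held 2.72 CPM of Krtdap in CTRL and 4.83 in EXP.

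The bulge/ORS-like cells comprised 4 clusters whose proportions differed between arms, and Krtdap differed among them. In cluster 9, Krtdap was 13.5 CPM in CTRL and 284 in EXP, with 12.3% and 11.7% of the cells. In cluster 4 it was 155 and 137 CPM, with 12.4% and 28.7% of the cells. In clusters 0 and 3 it was 19.1 and 24.0 CPM in CTRL and 15.8 and 35.5 CPM in EXP. The share of cells in cluster 4, where Krtdap was high in both arms, and the level in cluster 9 thus both differed, and their parts in the result were not tested. Calm4, chosen after its values were seen, was 10.79, 19.44, 8.552 and 5.322 CPM in CTRL and 23.65, 53.69, 16.15, 50.61 and 24.37 CPM in EXP. Its log2 fold change of 1.59 (SE 0.39) had an adjusted p of 0.0552 by edgeR and of 0.0121 with a replicate block. Calm4 in cluster 9 was 90.2 CPM in CTRL and 311 in EXP.

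**Figure D4:**
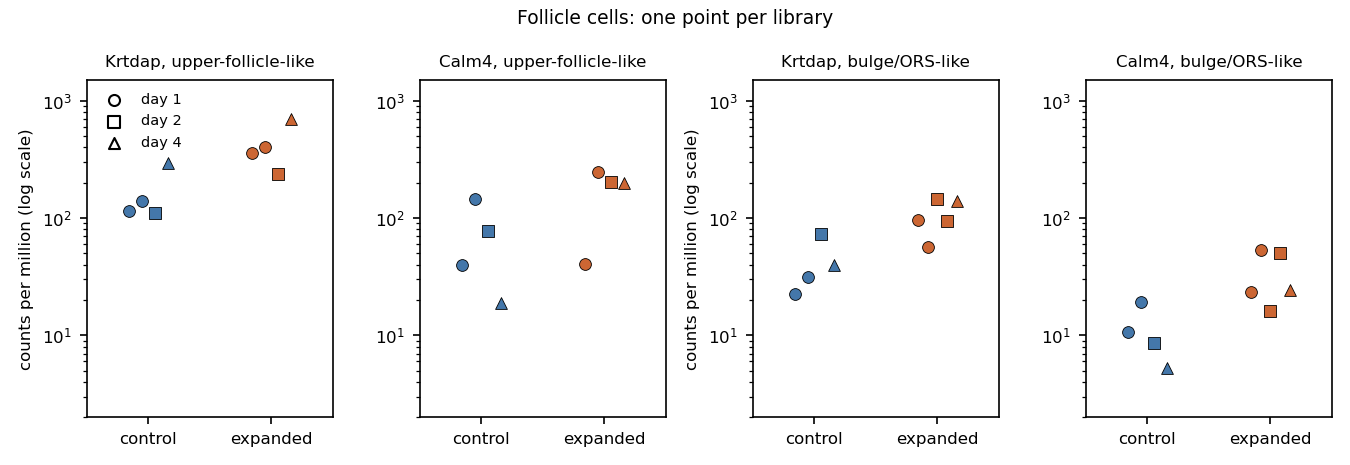
CPM of Krtdap and Calm4 (log scale) in upper-follicle-like and bulge/ORS-like cells, 1 point per library, with the day as the symbol. For Krtdap the upper-follicle-like libraries lie between 109.4 and 292.0 in control and between 239.3 and 703.5 in expanded skin.

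The difference between arms was itself compared between cell types, with library as a block. The cell types are names by markers, and the upper follicle keratin Krt79 was higher in clusters 5 and 16 than in upper-follicle-like cluster 1. The Krtdap log2 fold change was lower in spinous-like than in upper-follicle-like cells by 1.81, a difference of -1.81 (SE 0.33, adjusted p = 0.0150 by edgeR, 8 libraries), in a test that called 0.417% of 6959 genes. Against bulge/ORS-like cells the Krtdap difference was -1.65 (SE 0.39) and did not pass (adjusted p = 0.114 by edgeR, where 0.108% of 8305 genes were called). Calm4 differed by -1.97 against bulge/ORS-like cells (adjusted p = 0.0839) and by -1.51 against upper-follicle-like cells (0.275), neither of which passed edgeR's test. For Sprr2a3 the difference could not be estimated, since it was almost absent from both follicle groups.

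**Figure D5:**
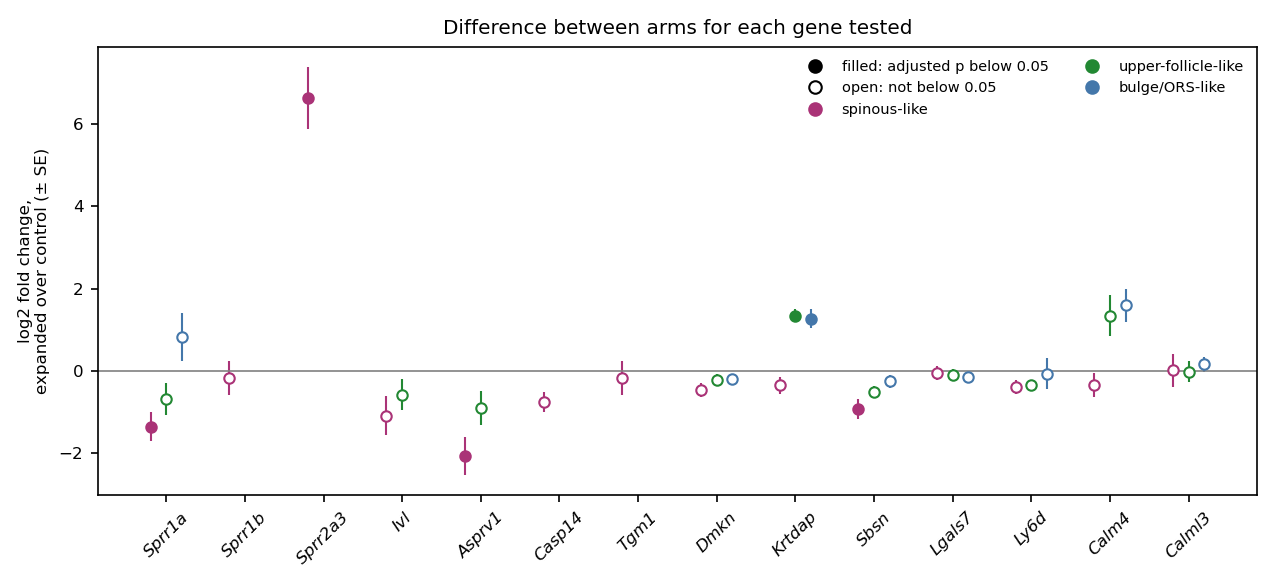
Log2 fold change of EXP over CTRL (± SE) for each gene tested in spinous-like, upper-follicle-like and bulge/ORS-like cells, with filled points for an adjusted p below 0.05. Krtdap is near 1.3 in both follicle groups and -0.35 in spinous-like cells, and Sprr2a3, at 6.62, was tested in spinous-like cells only.

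Over the whole keratinocyte lineage (5 against 5 libraries), 1 of 17 genes tested passed, against 7.57% of 11486 genes (3.99% higher and 3.58% lower). Sprr2a3 was 0, 0.838, 0, 4.966 and 0.364 CPM in CTRL and 5.11, 33.8, 17.15, 10.4 and 14.18 CPM in EXP (day 1 rounds 1 and 2, day 2 rounds 1 and 2, day 4). All EXP libraries lay above all CTRL libraries, as for 6.17% of genes in either direction. Sprr2a3 met the filter on low counts mainly through its EXP libraries, so this comparison is conditioned on high EXP values. Sprr2a3 rose by 3.62 on the log2 scale (SE 0.77, adjusted p = 0.0210 by edgeR). By direct count, 32 CTRL and 895 EXP UMIs gave a ratio of shares of UMIs of 14.6 (95% exact interval 10.3 to 21.5, counting error only). The EXP UMIs lay in 110 of 2853 cells, and the interval leaves out the spread between cells, mice and libraries. Of the Sprr2a3 UMIs, 17 in CTRL and 67 in EXP were of cycling cluster 7, where the Sprr2a3 level was close between arms. The call was lost without day 1 round 1 CTRL (adjusted p = 0.0583), day 1 round 2 CTRL (0.0644), day 4 CTRL (0.0645) or day 4 EXP (0.0663), by edgeR. The lineage mixes cell types whose shares differ between arms: inner root sheath or hair matrix-like cells were 8.11% ± 6.64 (SD, n = 5) of CTRL and 0.681% ± 0.822 (SD, n = 5) of EXP keratinocytes, and fewer cells and less RNA per cell cannot be told apart in these sums.

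Asprv1 over the lineage had a log2 fold change of -1.36 (SE 0.39) and an adjusted p of 0.0533, and of 0.0286 with a replicate block, by edgeR. Calml3, chosen after its values were seen, had 0.59 (SE 0.23) with an adjusted p of 0.123, and of 0.0164 with the block. Lor had -0.85 (SE 0.30, adjusted p = 0.0984), Krtdap 0.61 (SE 0.33, adjusted p = 0.261) and Lgals7 0.22 (adjusted p = 0.288), by edgeR.

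Hashing antibodies mark the cells of each mouse before pooling and told apart 14 CTRL and 14 EXP mice in the hashed libraries. At least 1 keratinocyte with Sprr2a3 was found in 6 of 14 CTRL mice and 13 of 14 EXP mice. In spinous-like cells this was 1 of 14 and 9 of 14 mice, and in basal-like cells 3 and 7. Many of these mice had few such cells: 0 to 41 spinous-like per CTRL mouse and 1 to 25 per EXP mouse, and 0 to 14 and 0 to 23 basal-like. With at least 10 cells, 1 of 4 CTRL and 4 of 4 EXP mice held Sprr2a3 in spinous-like cells. In basal-like cells 0 of 3 and 3 of 3 did. Each mouse had 9 to 128 keratinocytes, so a mouse without such a cell may have had one that was not sampled. With mice as replicates over the lineage (11 against 11, with a replicate block) Sprr2a3 fell below the filter, and Asprv1 (log2 fold change -1.81, adjusted p = 0.00193) and Ly6d (-0.42, adjusted p = 0.00449) passed by edgeR. That fit called 2 of the 10 genes of the set that it tested, and 1780 of all 6877 genes tested. These 11 and 11 mice came from 3 CTRL and 4 EXP libraries, so mice of a library share its pool and these p-values are too small.

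Differences between days in the effect of expansion were not established for any member. With day 1 as the reference, no gene of the set passed for day 2 or day 4 in spinous-like cells, where edgeR called 0.0535% and 0.0178% of 5608 genes. At an unadjusted p under 0.05, 6 of 14 genes differed on day 2, all towards a higher ratio of EXP to CTRL than on day 1. The share of all genes at that unadjusted threshold was not counted, for any day or cell type. The unadjusted counts given here therefore cannot be read as a trait of this set. The lowest adjusted p, 0.114, was that of Sprr1b, a day 2 minus day 1 difference in log2 fold change of 2.18 (SE 0.43). Sprr1a (2.23), Asprv1 (2.86), Sbsn (1.504), Calm4 (1.63) and Tgm1 (3.70) had adjusted p of 0.145 to 0.419. Sprr1a in EXP shows the pattern, at 315.2 and 586.9 CPM on day 1 against 1416 and 1669 on day 2. For day 4, 2 of 14 genes had an unadjusted p under 0.05, with a lowest adjusted p of 0.659. Over the lineage the counts were 9 of 17 for day 2 (lowest adjusted p 0.105, Tgm1) and 2 of 17 for day 4 (0.675), and edgeR called 0.104% and 0% of 11486 genes. Day 2 rests on 1 CTRL library in spinous-like cells, and day 4 on 1 library per arm.

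Related genes outside the 54, in lists of keratinocyte biology, were counted in the same spinous-like fit. Of 10 wound-induced keratinocyte genes tested, 7 rose and none fell, with a median log2 fold change of 2.65: Lcn2, an iron-binding defence protein, went from 4.77 to 201 CPM (5.58, adjusted p = 0.000106), S100a9 by 5.06 (0.00199) and Krt6a by 2.77 (0.00338). S100a9 and S100a8 are also leading genes of neutrophils, whose 8 markers summed to 13.5 to 32.1 CPM in CTRL and 76.9 to 3989 in EXP in these cells, or 0 to 18.26 and 2.861 to 19.16 without both genes, and the part of neutrophil RNA in these values was not tested. Of 14 early differentiation genes, 4 fell and 1 rose (median -0.64). Mt4, a metallothionein of stratified epithelia, went from 344 to 23.4 CPM (-3.65, adjusted p = 0.000106) and Krt10, the spinous keratin, from 7790 to 2947 CPM (-1.40, adjusted p = 0.0102). The gene that rose was Rbp2 (1.38, adjusted p = 0.0153), a retinol-binding protein. Of 21 regulators of late differentiation, 5 fell (Cebpa, Prdm1, Grhl3, Maf and Fosl1) and none rose, with a median of -0.52. All these values are from edgeR's quasi-likelihood test, and the median over all genes was -0.0012. Clusters 5 and 16, which make up these cells, differed in such genes. With both arms pooled, Krt6a was 515.3 and 6037 CPM in them, and Krt10 6497 and 910. Cluster 16 gave 3.125% to 33.3% of the cells in the CTRL libraries tested and 21.8% to 54.5% in EXP. The part of this mix in the results of the fit was not tested.

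Of 13 other proteins bound into the envelope, 3 fell, Serpinb2 (-1.71, adjusted p = 0.0244), Eppk1 and Anxa1, and 1 rose, Fabp5 (1.22, adjusted p = 0.0340 by edgeR), a fatty acid-binding protein. Of 11 barrier lipid genes tested, 2 fell, Sptlc3 (-1.36) and Acer1 (-0.80), which make and cleave ceramides. Of 13 envelope proteases and inhibitors, 2 rose, Klk10 (1.48) and Ctsl (1.17), and none fell. Of 6 granular-layer markers outside the set, Cdsn, the glue of corneodesmosomes, fell (-2.30, adjusted p = 0.0187 by edgeR). Of 12 basal anchorage genes, 5 rose, among them Itga3 (2.40), Itgb4 (1.42) and Krt14 (0.93), and 2 fell (Dst and Krt15), with a median of 0.87. Of 6 fibroblast transcripts tested, 5 fell, with a median of -3.19, and the summed level of 10 such transcripts was 273 to 1025 CPM in CTRL and 39.3 to 193 in EXP. Of 2 immune transcripts, Cd74 fell, and of 6 follicle and sebaceous transcripts none passed. The part of these transcripts of other cells in the results above was not tested.

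In upper-follicle-like cells, 3 of 7 early differentiation genes (Skint3, Sfn and Krt77) and 3 of 20 regulators (Grhl3, Prdm1 and Fosl1) fell, and 2 of 7 wound-induced genes (Lcn2 and Stfa3) rose, while 5 of 6 fibroblast transcripts fell (median -2.94). In bulge/ORS-like cells 1 of 7 wound-induced genes rose, Lcn2 (3.83, adjusted p = 0.00399 by edgeR), and no early differentiation gene, regulator, protease, lipid or scaffold gene passed, while 6 of 9 fibroblast transcripts fell (median -2.78). Krtdap was thus called in bulge/ORS-like cells, where none of the 4 early differentiation genes tested was.

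Some of the 54 genes were also read outside keratinocytes. Asprv1 had 2009 UMIs in 1320 neutrophils (109 CTRL and 1211 EXP cells), of which 22.7% held at least 1, at 71.8 to 361.5 CPM in CTRL libraries and 89.5 to 781.8 in EXP libraries. This was more than the 1681 Asprv1 UMIs of all keratinocytes. In T cells, by comparison, Asprv1 had 12 UMIs, in 0.249% of cells. Dmkn had 5846 UMIs in macrophages or monocytes, of which 24.1% held at least 1 (2.55% of T cells), and Tgm1 had 335 UMIs in those cells and 320 in fibroblasts (with at least 1 in 0.1556% of T cells). Lgals7, the most abundant keratinocyte transcript of the set, was found in 19.6% of T cells at 64.0 CPM. T cells should lack Lgals7, so this is the background of Lgals7 and of no other gene.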

How the data were processed

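The deposited values are raw UMI counts for each gene in each barcode. The authors obtained them from Cell Ranger 6.1.2 and mm10, per the submitters' processing notes; the gene annotation is not given in the sources used here. Positions come from GENCODE's mm10 annotation. Kept were barcodes with at least 200 genes and 500 UMIs whose mitochondrial share was up to 10%, and Scrublet (0.0584% to 2.97% per library) and hashtag doublets (1.40% to 4.41%) were removed. Cells were clustered without the 54 genes (scanpy 1.11.5; 2000 variable genes, 30 components, 15 neighbours, leidenalg 0.10.2 at resolution 1) and named from fixed markers, 3 of which had to be in at least 10% of cells and 2-fold above other clusters. These are rebuilt names. Mice were told apart with HTODemux (Seurat 5.3.0, quantile 0.99).

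Counts were summed per library and cell type with at least 20 cells and tested with edgeR 4.0.16 (R 4.3.3): filterByExpr, TMM, arm plus day, and Benjamini-Hochberg adjustment over all genes, with 0.05 as the threshold. At resolution 1 too few libraries reached 20 spinous-like cells, so resolution 0.5 and 10 cells were used for that cell type. The basal-like test and the planned spinous against basal comparison could not be made, and the bulge/ORS-like test was added; these choices were made after seeing the data. On simulated data, 4-fold changes were recovered for 96% (spinous-like) to 99% (lineage) of changed genes and 2-fold changes for 56% to 75%. The labels' number is the sequencing round, which pairs the arms; deviations of same-round libraries correlated at 0.0163 to 0.340 across genes. Alternatives were a replicate block, DESeq2 1.42.0, RLE scaling, no filter, thinning to 2000 UMIs, at most 5% mitochondrial UMIs, other clusterings and leaving out each library.

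The members and lists were chosen with earlier results of these data known. Genes named in each comparison are those called and the 3 most abundant per role; further ones are said to have been chosen after their values were seen, as were the Sprr2 genes other than Sprr2a3. Motifs and shared 50-base windows were counted from RefSeq and GENCODE sequences.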

Additional observations from a re-analysis of the deposited data

Results flagged for a closer look

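Of 96 sets of 4 or 5 libraries, 15 had 1 library far from the others; chance gives about 1 in 20. In spinous-like cells these were, in CTRL, Calm4 at 1430 CPM in day 2 round 2 (the others 2915 to 3124), Lor at 118.7 and Sprr1b at 998.1 CPM on day 4, and Sprr2a3 at 1.924 CPM in day 1 round 2, where the other libraries had none. In EXP they were Asprv1 at 200.3 CPM in day 2 round 1, Flg at 66.87 CPM on day 4 and Lor at 28.15 CPM in day 1 round 1. In upper-follicle-like cells, Asprv1 was 127 CPM in day 1 round 1 CTRL and Krtdap 292 CPM in day 4 CTRL. In bulge/ORS-like cells, Lgals7 was 5338 CPM in day 2 round 2 CTRL and Tgm1 7.23 CPM in day 2 round 2 EXP. Over the lineage, Asprv1 was 30.15 CPM in day 2 round 1 EXP, Flg 3.428 CPM in day 1 round 1 CTRL and 5.342 CPM in day 4 EXP, and Sprr2a3 4.966 CPM in day 2 round 2 CTRL.

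The Krtdap difference between arms was smaller in spinous-like than in upper-follicle-like cells, by -1.808 on the log2 scale, in a test of the difference itself.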

How the results depend on the processing

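Counts of the 54 genes called moved with the setting. Each count is given out of the genes of the set tested, and the counts over all genes follow below. In spinous-like cells 4 of 14 were called, 8 of 42 with no filter and 0 of 10 in thinned cells. With every library it was 1 of 12 (Sprr2a3 was not tested there), and at 5% mitochondrial UMIs 5 of 13. It was 3 of 14 with the 54 genes kept in the clustering and 2 of 12 in cluster 5 alone. With 1 library left out, 0 to 6 were called, of 13 to 17 tested. In upper-follicle-like cells 1 of 10 was called, 4 of 29 with no filter and 0 of 8 thinned. It was 2 of 10 at resolution 0.5, 2 of 9 with at least 10 cells, and 1 to 2 with 1 library left out, of 9 or 10 tested. In bulge/ORS-like cells 1 of 8 was called, 2 of 8 with a replicate block, 2 of 8 by DESeq2 and 4 of 23 with no filter. It was 0 of 7 thinned, 0 of 8 at 5% mitochondrial UMIs, 2 of 8 with at least 10 cells and 0 to 2 of 8 with 1 library left out. Over the lineage 1 of 17 was called, 3 of 17 with a replicate block, 2 of 16 by DESeq2 and 9 of 49 with no filter. It was 2 of 16 at 5% mitochondrial UMIs, 2 of 10 with mice as replicates, and 0 to 3 with 1 library left out, of 16 to 18 tested. In spinous-like cells no member's effect by day was called with RLE scaling, in thinned cells or, for day 2, without day 4, the alternatives run for it. The replicate block lost Sbsn in spinous-like cells and added Calm4 (bulge/ORS-like), Asprv1 and Calml3 (lineage), and changed no other call of a member. Thinning left 792, 1563, 3622 and 7199 genes to test in the 4 comparisons.

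Some directions turned. In spinous-like cells these were Lgals7 (0.0143 with the block, 0.0296 thinned, 0.14 with every library, 0.26 in cluster 5), Calm4 (0.0185 with every library), Tgm1 (0.0363 at 5% mitochondrial UMIs) and Sprr1b (0.10 thinned, 0.17 with every library). In bulge/ORS-like cells they were Lgals7 (0.0382 with at least 10 cells) and Ly6d (0.0762 with the block). Over the lineage they were Calm4 (-0.0328 thinned, -0.0684 with mice), Tgm1 (0.0211 by DESeq2), Dmkn (-0.18 with mice) and Sprr1b (-0.22 thinned, -0.0834 at 5% mitochondrial UMIs, -0.10 with mice). With 1 library left out, log2 fold changes ran from -0.13 to 0.0533 for Lgals7, -0.53 to 0.23 for Tgm1 and -0.80 to 0.38 for Sprr1b in spinous-like cells, from -1.52 to 0.0201 for Asprv1 in upper-follicle-like cells, from -0.37 to 0.0911 for Ly6d in bulge/ORS-like cells, and over the lineage from -0.52 to 0.16 for Tgm1, -0.29 to 0.0761 for Sbsn and -0.29 to 0.50 for Sprr1b. The cause was not tested.

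Counts over all genes moved too. In spinous-like cells 412 of 5608 became 267 of 5064 by DESeq2, 756 of 16350 with no filter, 17 of 792 thinned and 161 of 3926 in cluster 5. The count was 316 of 4866 with every library, 368 of 4874 at 5% mitochondrial UMIs and 424 of 5893 with the 54 genes kept in the clustering. With 1 library left out it ran from 68 of 4865 to 556 of 6090. In upper-follicle-like cells 176 of 6366 became 324 of 6366 with the block, 103 of 3157 by DESeq2, 377 of 16447 with no filter and 5 of 1563 thinned. The count was 83 of 6148 at 5% mitochondrial UMIs, 332 of 7065 at resolution 0.5 and 224 of 5949 with at least 10 cells. With 1 library left out it ran from 32 of 6430 to 155 of 6477. In bulge/ORS-like cells 211 of 8431 became 273 of 8431 with the block, 245 of 6796 by DESeq2, 715 of 18816 with no filter and 31 of 3622 thinned. The count was 135 of 7556 at 5% mitochondrial UMIs, 364 of 8223 with the 54 genes kept in the clustering and 225 of 8199 with at least 10 cells. With 1 library left out it ran from 20 of 8513 to 179 of 8420. Over the lineage 869 of 11486 became 1312 of 11486 with the block, 1429 of 11263 by DESeq2, 1950 of 21930 with no filter and 151 of 7199 thinned. The count was 906 of 11085 at 5% mitochondrial UMIs and 1780 of 6877 with mice. With 1 library left out it ran from 228 of 11591 to 1575 of 11887. Not run were the basal-like test, the upper-follicle-like test with the genes kept in the clustering, where too few libraries had 20 cells, and changes of clustering for the lineage, which holds the same cells. The spinous-like comparison rests on few cells, 418 over 10 libraries, of which 9 were used.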
